A study of Mus musculus with 24 samples.

Results

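Downstream open reading frames (ORFs) are stretches of codons that begin on a transcript after the end of its longest ORF. They were taken from a table of ribosome footprints in mouse liver, in which every row is 1 ORF, named by its transcript and its first and last base, and every value is the number of P-sites counted in that ORF in 1 library. The P-site is the place in the ribosome that holds the tRNA with the growing chain, and its position is inferred from the footprint read. Among the transcripts with at least 2 ORFs in the table, the longest ORF was taken as the reference, and every other ORF that starts after the last base of the longest one was kept. This gave 225 downstream ORFs of 22590 ORFs in all, or 0.996% of the table, on 205 of the 1414 transcripts with 2 or more ORFs. The same transcripts held 1073 ORFs upstream of the longest one and 284 that overlap it. The rule used positions only and no counts.

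When a ribosome reaches a stop codon, eRF1 and eRF3 release the finished chain, ABCE1 splits the ribosome into its subunits, and eIF2D or the MCTS1-DENR pair clears the tRNA from the 40S subunit that remains. A ribosome that is not fully recycled, that reads through the stop codon, or that starts again further on can leave footprints after the main ORF, and Pelota with HBS1L rescues ribosomes stalled there. Some transcripts also carry more than 1 translated coding region, and some annotated transcripts have several short ORFs and no long one.

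The libraries came from livers of male mice of an F1 hybrid of C57BL6J and FVBN. The 24 libraries fell into 6 groups of 4: wild type fed ad libitum at 16 weeks, wild type on 30% dietary restriction at 16 weeks, wild type fed ad libitum at 104 weeks, and Ercc1 d/- mutants fed ad libitum at 7 weeks, fed ad libitum at 16 weeks and on 30% restriction at 16 weeks. ERCC1 is a subunit of an endonuclease that removes damaged DNA, and Ercc1 d/- mice, which carry the defect in every tissue, age prematurely. Restriction began at 7 weeks of age and was raised stepwise to 30%, which was given from 9 weeks on. The labels number the samples 1 to 4 in each group and do not say for each one that it is a separate mouse, so the p-values measure the spread between these samples. Liver is a mixture of cell types, and in bulk libraries fewer cells of a type and less RNA per cell cannot be told apart. Messenger RNA levels were not analysed here, so a change in P-sites is not split into mRNA amount and translation.

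The libraries held 13366558 to 27084259 reads assigned to genes and 8562294 to 27241137 P-sites assigned to ORFs. Ercc1 had 1 to 15 reads in the 12 mutant libraries and 34 to 110 in the 12 wild-type libraries, with no overlap. Replicate 1 of the old wild type had P-sites equal to 58.1% of its gene reads, against 86.4% to 109% in the others. The 6 hepatocyte markers (among them albumin and transthyretin) summed to 86841 to 240583 CPM (reads per 1e6 scaled reads). The 7 macrophage markers summed to 194 to 233 CPM in the fed young wild type, 315 to 398 in the old wild type, 386 to 530 in the fed 16-week mutants, 224 to 363 in the restricted wild type and 381 to 501 in the restricted mutants. In edgeR, 7 of these 7 markers were higher in fed mutants than in fed wild type, 6 of 7 in old than in young wild type, and 5 of 7 in restricted mutants than in restricted wild type, and none was at 0 in any library. Summed B and plasma cell markers were at 1.12 to 3.92 CPM in young and 34.6 to 82.1 in old wild type, and neutrophil markers at 0.117 to 0.72 and 2.9 to 8.41. Stellate cell markers reached 113 to 165 CPM in fed and 202 to 370 in restricted wild type, endothelial markers 103 to 216 over all libraries, and cholangiocyte markers 0.694 to 37.4, the highest in a restricted mutant library. The B and plasma cell markers Cd79a and Jchain were at 0 in single libraries of several groups, and the cholangiocyte marker Krt19 in an old wild-type library. The part of these cell types in the results below was not tested.

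Downstream ORFs were short and lay close behind the longest ORF. Their length ran from 7 to 743 codons with a median of 51, against a median of 31 codons for upstream ORFs, 61 for overlapping ORFs and 365 over all ORFs of the table. The first base lay 2 to 8603 bases after the end of the longest ORF, with a median of 134 bases. Of the 225, 90 lay within 100 bases, and 19 lay more than 1000 bases away. Relative to the longest ORF, 87 (38.7%) were in the same frame, 64 (28.4%) in the +1 frame and 74 (32.9%) in the +2 frame, while upstream ORFs were divided as 31.5%, 35.5% and 33.0%. No test was run on these shares. The longest ORF of the transcript was itself short in many cases, with under 100 codons for 104 of the 225, and 3 downstream ORFs were exactly as long as the ORF taken as the longest, which was then the one that starts first.

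**Figure D1:**
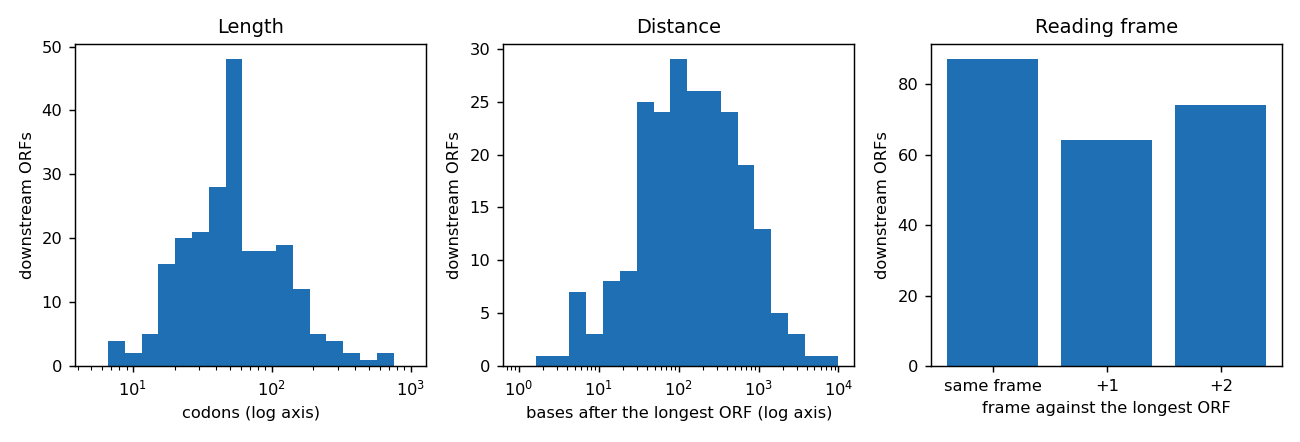
Histograms of the length in codons (left, log axis) and of the distance in bases from the end of the longest ORF (middle, log axis), and bars for the reading frame relative to the longest ORF (right), each as a number of downstream ORFs out of 225. Length centres on a median of 51 codons, distance on a median of 134 bases, and 87 share the frame of the longest ORF.

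The ORFs nearest the boundary show what the rule separates. Just inside it, the ORF at bases 405 to 461 of ENSMUST00000210080 starts after a gap of 2 bases, that at 457 to 540 of ENSMUST00000111332 after 3 bases, and that at 669 to 902 of ENSMUST00000122361 after 5 bases. Just outside it, the ORFs at 214 to 357 of ENSMUST00000001284, 863 to 1285 of ENSMUST00000027499 and 1250 to 1387 of ENSMUST00000069000 start on the last base of the longest ORF and so were counted as overlapping. Of 62 overlapping ORFs that run past the end of the longest one, 6 share 1 base with it and 0 share 4 bases. A gap of under 10 bases was found for 9 downstream ORFs.

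Most transcripts with a downstream ORF had a single one: 186 had 1, 18 had 2 and 1 had 3. ENSMUST00000119282 is the transcript with 3, all behind a longest ORF at bases 2203 to 2868 that held 107 P-sites over the 24 libraries. The first of its downstream ORFs, at 2875 to 3036, held 122 P-sites in the same frame. The second, at 3665 to 4045, held 227 in the +1 frame, and the last, at 4437 to 4769, held 76 in the +2 frame. The starts of these 3 ORFs thus differ in frame, while the frame of the P-sites within them was not analysed here. No pair of downstream ORFs overlapped, and none had the same counts as another ORF in every library. By their names, 39 share a transcript with another downstream ORF. Whether their footprints came from the same mRNA was not tested.

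The 225 downstream ORFs together held 214306 of 434552623 P-sites, or 0.0493%. Their totals over the 24 libraries ran from 2 to 26054 with a median of 113. The 5 with the most P-sites held 49.9% of that sum and the 10 with the most 66.7%, so summed values mostly follow a few ORFs. A single library showed P-sites in 149 to 198 of the 225. Between 8 and 21 of them were at 0 in all 4 libraries of a group, which at these depths limits a level and does not show absence.

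Compared with the longest ORF of their transcript, the median downstream ORF had 29.9% of its P-sites, against 11.4% for upstream and 23.0% for overlapping ORFs. More P-sites than in the longest ORF were counted in 53 downstream ORFs (23.6%), against 11.1% of upstream and 10.6% of overlapping ORFs. Per codon the order was the other way round. The density in P-sites per codon exceeded that of the longest ORF in 88 downstream ORFs (39.1%), against 70.2% of upstream and 60.6% of overlapping ORFs. The median ratio of densities was 0.795 for downstream, 1.57 for upstream and 1.26 for overlapping ORFs. It was 0.658 for the 87 downstream ORFs in the same frame, 0.788 for the 64 in the +1 frame and 0.824 for the 74 in the +2 frame. By distance it was 0.846 within 100 bases, 0.649 from there to 1000 bases and 0.963 beyond. These are descriptions of ORFs, which are not replicates of a condition.

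**Figure D2:**
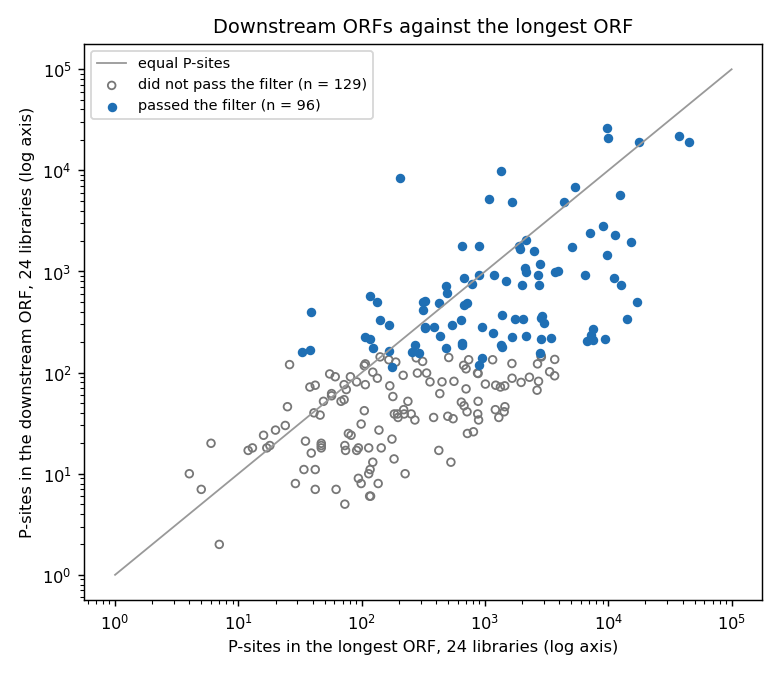
Each point is 1 of 225 downstream ORFs, with the P-sites of the longest ORF of its transcript on the x axis and its own on the y axis, both summed over 24 libraries on log axes. Filled points are the 96 that passed the filter on low counts, open points the 129 that did not, and 53 points lie above the line of equal P-sites.

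The ORF at bases 1715 to 2188 of ENSMUST00000119417 had the most P-sites of all, 26054, while the longest ORF at bases 1 to 597 of the same transcript had 9713. In fed wild type at 16 weeks it stood at 66.4 ± 13.3 CPM, here P-sites per 1e6 scaled P-sites (mean ± SD, n = 4), and in restricted mutants at 37.4 ± 17.2 (n = 4). Its P-sites were 248% to 279% of those of the longest ORF in the 6 group means, so the excess over the longest ORF was present in each group.

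The ORF at 1117 to 1449 of ENSMUST00000134229 came second, with 22097 P-sites against 37447 in the longest ORF at 9 to 449. It had 199 P-sites per codon and the longest ORF 255. Its group means ran from 41.2 ± 10.6 CPM in restricted wild type to 59.6 ± 17.6 CPM in fed 16-week mutants (n = 4 each), and no comparison between groups passed the test.

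The ORF at 3167 to 3415 of ENSMUST00000078717 began 1961 bases after the end of the longest ORF and held 20757 P-sites, 9.18 times its density per codon. Its level was 42.6 ± 5.05 CPM in fed young wild type, 57.1 ± 12.2 in old wild type and 51.9 ± 5.48 in fed 16-week mutants (SD, n = 4 each). No comparison of this ORF passed the test.

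The longest of the 225, with 743 codons, lay at 3860 to 6088 of ENSMUST00000217708, behind a longest ORF of 886 codons at 122 to 2779. Both held similar totals, 18908 and 17600 P-sites. In the group means the downstream ORF had 96.4% to 118% of the P-sites of the longest ORF, and it was at 75.1% to 142% in single libraries.

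The largest excess over the longest ORF was at bases 3006 to 3359 of ENSMUST00000101253, where 8475 P-sites stood against 205 in a longest ORF of 673 codons, a 236-fold higher density per codon. In fed wild type at 16 weeks the downstream ORF had 19.2, 19.9, 16.3 and 18.2 CPM and the longest ORF 0.799, 0.347, 0.454 and 1.06 CPM. In restricted mutants the downstream ORF had 17.6, 19.9, 16.0 and 20.2 CPM. The 6 group means lay between 18.4 and 22.0 CPM, and all group ranges overlapped. The labels do not say which of the ORFs of this transcript is annotated as coding.

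At bases 815 to 1339 of ENSMUST00000201488 the downstream ORF held 9762 P-sites and the longest ORF 1346, and the downstream ORF was at 533% to 942% of it in the group means. The ORF at 2401 to 2871 of ENSMUST00000195764 held 576 P-sites against 116, 23.5 times the density, and that at 1350 to 1475 of ENSMUST00000156790 held 402 against 39, 18.2 times the density. In the latter transcript the longest ORF had 0 P-sites in all 4 restricted mutant libraries, while the downstream ORF had 10 to 20. Over the whole set, 4 downstream ORFs had at least 10 times the density of the longest ORF, and 23 had at most 10% of it.

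Long downstream ORFs could be thinly covered and short ones well covered. The ORF at 5148 to 6449 of ENSMUST00000224954, with 434 codons the longest but 2 among those that passed the filter, held 230 P-sites, and its density was 0.963 of that of its longest ORF. Among the shortest that passed, the ORF at 280 to 318 of ENSMUST00000225963 has 13 codons and held 491 P-sites, and that at 961 to 1002 of ENSMUST00000139261 has 14 codons and held 224. The ORFs of ENSMUST00000224954 and ENSMUST00000139261 passed no comparison between groups.

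The share of P-sites in downstream ORFs was computed per library as a percentage of all P-sites on the 205 transcripts. In fed young wild type it was 30.3%, 29.6%, 29.9% and 27.8% in replicates 1 to 4. In old wild type it was 31.4%, 31.8%, 30.9% and 31.3%, all above the young libraries. In restricted wild type it was 33.1%, 31.2%, 33.8% and 30.8%, again all above the fed libraries of the same age.

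In the mutants the groups overlapped. The share was 31.1%, 30.7%, 29.2% and 29.7% at 7 weeks and 29.6%, 30.2%, 31.6% and 30.8% in fed 16-week mutants. Restricted mutants had 29.5%, 32.3%, 33.8% and 33.6%, with replicate 1 below all fed wild-type libraries but replicate 4. Replicates 2 to 4 of the restricted mutants lay above every fed mutant library.

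Tested with an exact 2-sided permutation test of 4 against 4 libraries, whose smallest possible p is 0.0286, the share was 1.94 percentage points higher in old than in young wild type (p = 0.0286, adjusted p = 0.0857 over 6 comparisons) and 2.83 points higher in restricted than in fed wild type (p = 0.0286, adjusted p = 0.0857). Neither passed after adjustment. With so few of the 6 comparisons at the smallest possible p, no adjusted p under 0.05 was attainable. The other 4 differences were 1.12 points for fed mutant minus fed wild type, 0.357 for mutants at 16 minus 7 weeks, 1.79 for restricted minus fed mutants and 0.0721 for restricted mutants minus restricted wild type, with exact adjusted p from 0.3 to 1. The share was also computed without the 10 downstream ORFs with the most P-sites. The other ORFs of their transcripts, the longest ones included, stayed in the denominator. A change in those ORFs therefore also moves this share. The old-minus-young difference was then -0.135 points, and the restricted-minus-fed difference in wild type was 0.293. Restricted mutants were then 1.83 points above fed mutants, at 14.6% ± 1.13 against 12.8% ± 0.106 (SD, n = 4), and fed mutants at 16 weeks fell by 1.15 points from 13.9% ± 0.373 at 7 weeks, each with exact p = 0.0286 and adjusted p = 0.0857. The difference between restricted mutants and restricted wild type was then 1.97 points (exact p = 0.0571, adjusted p = 0.114), against 0.0721 with all 225, and that between fed mutants and fed wild type 0.429 (exact p = 0.143).

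As a share of all P-sites in the table, downstream ORFs in restricted and fed wild type overlapped, at 0.0501% ± 0.0059 and 0.0493% ± 0.00411 (SD, n = 4; exact permutation p = 0.83). These groups were thus apart with the P-sites of the 205 transcripts as the denominator and not with all P-sites. Old wild type stayed above young on this scale, at 0.0565% ± 0.0028 (exact permutation p = 0.0286, adjusted p = 0.171).

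The downstream share was also set against the share of upstream ORFs on their own transcripts, as a log2 ratio per library. It was 0.55 ± 0.13 in fed and 0.82 ± 0.15 in restricted wild type, 0.73 ± 0.06 in fed and 1.03 ± 0.07 in restricted 16-week mutants (SD, n = 4 each). The groups did not overlap in 3 of 6 comparisons, with differences of 0.19 for fed mutants minus fed wild type, 0.27 for restricted minus fed wild type and 0.29 for restricted minus fed mutants. Each had an exact 2-sided permutation p of 0.0286 and an adjusted p of 0.0571 over the 6 comparisons, so none passed. With only 3 of 6 comparisons at this smallest possible p, no adjusted p under 0.05 was attainable. The upstream share itself was 20.1% ± 1.12 in fed and 18.3% ± 1.32 in restricted wild type, and these groups overlapped. It was 18.4% ± 0.768 in fed and 15.9% ± 0.719 in restricted 16-week mutants. This share is the denominator of the ratio, and in these 3 comparisons its mean was lower where the ratio was higher.

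**Figure D3:**
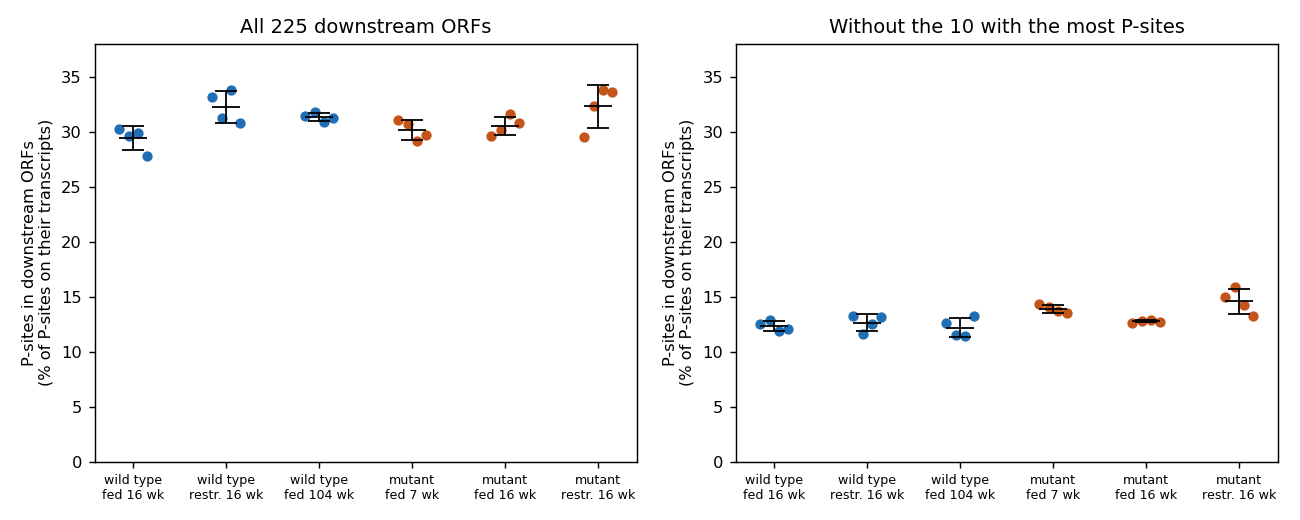
P-sites in downstream ORFs as a percentage of the P-sites on their 205 transcripts, per library (points; blue wild type, orange Ercc1 d/- mutant), with the group mean and SD (black), for all 225 downstream ORFs (left) and without the 10 with the most P-sites (right). On the left the old and the restricted wild-type libraries lie above the fed young ones, and on the right the old and young wild type overlap. On the right the other ORFs of the transcripts of those 10 stayed in the denominator.

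For single ORFs, P-sites of all ORFs were compared with the edgeR quasi-likelihood test over the 24 libraries, and an ORF was called when its Benjamini-Hochberg adjusted p was under 0.05 over the 18344 ORFs that passed the filter on low counts. Of the 225 downstream ORFs 96 passed, with totals of at least 113 P-sites, while the 129 that did not pass had at most 146 and a median of 43. Counts of calls below are therefore out of these 96, which are the better covered ones. In all 34 calls were made over the 7 comparisons, in 22 different downstream ORFs. Several comparisons share a group of libraries, so their calls are not independent.

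In fed mutants against fed wild type at 16 weeks, 3 of 96 downstream ORFs were called, all lower, against 9.14% of all ORFs (5.03% higher and 4.12% lower). The median log2 difference of the 96 was -0.03, against 0.01 over all ORFs tested.

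The ORF at bases 607 to 822 of ENSMUST00000082426 stood at 3.56, 5.09, 4.41 and 4.95 CPM in fed wild type and at 1.16, 1.38, 1.55 and 0.941 CPM in fed mutants. All mutant libraries were lower than all wild-type ones, a log2 difference of -1.83 ± 0.54 (SE; edgeR adjusted p = 0.0314). Its longest ORF, at 52 to 426, differed by -1.35 ± 0.53 and did not pass (adjusted p = 0.123).

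The ORF at 121 to 153 of ENSMUST00000115582, with 11 codons, had 0.680, 1.68, 1.94 and 0.619 CPM in fed wild type and 0.289, 0.053, 0.301 and 0.385 CPM in fed mutants. These rest on 7 to 47 P-sites per wild-type library and 1 to 9 per mutant library. The groups did not overlap, and the log2 difference was -2.23 ± 0.63 (edgeR adjusted p = 0.0239). The third call, seen after the values were known and outside the rule for named ORFs, was the ORF at 326 to 376 of ENSMUST00000232983, at 1.00 ± 0.227 CPM in wild type and 0.248 ± 0.101 in mutants (SD, n = 4; edgeR adjusted p = 0.00459).

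Leaving out replicate 2 or 3 of the fed wild type, or replicate 1 or 3 of the fed mutants, left 1 call in this comparison, and leaving out replicate 4 of the fed wild type gave 5. Without replicate 2 of the fed mutants 1 of these 3 calls was also left. The call of ENSMUST00000082426 was lost without any one of 7 of the 8 libraries (adjusted p up to 0.0925), all but replicate 1 of the wild type. That of ENSMUST00000115582 was lost without replicate 2 or 3 of the wild type or replicate 1, 2 or 3 of the mutants (adjusted p up to 0.0962).

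In old against young wild type, 5 of 96 downstream ORFs were called, 1 higher and 4 lower, against 8.31% of all ORFs (4.12% higher and 4.19% lower). The ORF at bases 1617 to 1940 of ENSMUST00000100960 had 6.36, 6.88, 6.56 and 5.92 CPM in young and 1.38, 0.946, 1.89 and 3.47 CPM in old wild type. Every old library was below every young one, by -1.73 ± 0.32 on the log2 scale (edgeR adjusted p = 0.00103). The longest ORF of this transcript, at 99 to 1409, also fell, by 1.34 on the log2 scale (adjusted p = 0.000882).

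At 897 to 1361 of ENSMUST00000055593 the downstream ORF had 3.84, 2.83, 2.60 and 3.00 CPM in young and 0.688, 1.89, 1.21 and 1.59 CPM in old wild type. The ranges did not overlap (log2 difference -1.15 ± 0.34, edgeR adjusted p = 0.0346), and the longest ORF differed by -0.53 ± 0.26 without passing (adjusted p = 0.22). The call was lost without replicate 1, 2 or 4 of the young or replicate 1 or 3 of the old wild type, with adjusted p up to 0.111. The other calls lie outside the rule for named ORFs: ENSMUST00000232983 (326 to 376) at 0.0805 ± 0.0597 against 1.00 ± 0.227 CPM, and ENSMUST00000059093 (465 to 587) at 0.0794 ± 0.0984 against 0.625 ± 0.274 CPM, were lower in old mice. The call of ENSMUST00000059093 was lost without replicate 3 of the young or replicate 3 or 4 of the old wild type (edgeR adjusted p up to 0.0581).

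The one rise with age was the ORF at 1099 to 1206 of ENSMUST00000150411, a transcript with another downstream ORF at 703 to 942. It had 0.360, 0.173, 0.247 and 0.265 CPM in young and 0.918, 0.946, 0.831 and 0.723 CPM in old wild type, from 3 to 14 P-sites per library. The groups did not overlap (log2 difference 1.65 ± 0.42, edgeR adjusted p = 0.0121), and its longest ORF, at 1 to 558, rose by 1.31 ± 0.35 (adjusted p = 0.0197). Too few libraries outside the old group reached the level set by the filter on low counts. The downstream ORF was thus tested because it was high in old mice, and its rise is not independent of that filter. This comparison had 3 calls without replicate 3 of the old wild type.

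In fed mutants at 16 against 7 weeks, 1 of 96 downstream ORFs was called, against 0.474% of all ORFs (0.283% higher and 0.191% lower). The ORF at 3304 to 3567 of ENSMUST00000102985 had 7.78, 5.64, 3.07 and 3.65 CPM at 7 weeks and 1.01, 0.794, 0.802 and 0.599 CPM at 16 weeks. All 16-week libraries were below all 7-week ones, with a log2 difference of -2.67 ± 0.58 (edgeR adjusted p = 0.0348), and the longest ORF differed by -1.18 ± 0.52 (adjusted p = 0.48). Leaving out any 1 of the libraries other than replicate 4 of the 7-week mutants ended the call, with adjusted p up to 0.157.

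Dietary restriction in wild type gave 4 calls among the 96, 2 higher and 2 lower, against 10.8% of all ORFs (5.51% higher and 5.3% lower). The ORF at 2257 to 2601 of ENSMUST00000062370 rose. It had 7.68, 9.25, 7.26 and 8.22 CPM in fed and 20.0, 16.5, 15.9 and 20.6 CPM in restricted wild type, so every restricted library was above every fed one (log2 difference 1.17 ± 0.24, edgeR adjusted p = 0.00225). Its longest ORF, at 97 to 1254, had 2.32, 2.14, 3.18 and 3.18 CPM in fed and 4.76, 1.02, 1.84 and 0.792 CPM in restricted wild type. That ORF did not pass (log2 difference -0.31 ± 0.41, adjusted p = 0.689), and 3 of its 4 restricted libraries were below the fed ones. The ratio of the downstream ORF to it, tested with limma as described below, was not called in this comparison.

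ENSMUST00000100960 showed the largest fall. Its downstream ORF had 0.430, 1.18, 0.897 and 0.132 CPM in restricted wild type, from 2 to 22 P-sites per library, against 5.92 to 6.88 CPM in fed wild type. The log2 difference was -3.25 ± 0.35 (edgeR adjusted p = 3.42e-07), and the longest ORF fell by 2.43 on the same scale (adjusted p = 2.85e-07). Its share relative to the longest ORF was 25.5%, 34.9%, 37.9% and 35.4% in fed and 18.3%, 22.2%, 20.7% and 5.00% in restricted wild type.

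The other calls in restricted wild type were the ORF of ENSMUST00000122361, 5 bases behind its longest ORF, and that of ENSMUST00000102985. The first was at 21.4 ± 4.61 CPM in restricted and 13.4 ± 3.23 in fed wild type (SD, n = 4; edgeR adjusted p = 0.0491) and the groups overlapped. The second was at 0.446 ± 0.469 against 2.48 ± 2.02 CPM (adjusted p = 0.00987), with overlap as well. The rise of ENSMUST00000122361 was lost without replicate 1, 2 or 4 of the fed or of the restricted wild type (adjusted p up to 0.177). It was also lost with RLE size factors, with no filter on low counts, with a replicate block and in a fit of these groups alone (adjusted p up to 0.09). The fall of ENSMUST00000102985 was lost without replicate 2 of the fed wild type (adjusted p = 0.0571) and in a fit of these groups alone (0.0826). Without replicate 2 of the fed wild type 2 calls were left.

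Dietary restriction in mutants gave 7 calls among the 96, 2 higher and 5 lower, against 9.77% of all ORFs (4.7% higher and 5.08% lower). ENSMUST00000062370 was again higher, with 8.83, 5.67, 13.8 and 8.56 CPM in fed and 22.2, 14.7, 12.7 and 25.1 CPM in restricted mutants (log2 difference 1.01 ± 0.24, edgeR adjusted p = 0.00651). One restricted library, replicate 3, lay below the highest fed one. Its longest ORF differed by -0.17 ± 0.40 (adjusted p = 0.849). The ratio of the downstream ORF to the longest one was not called by limma in mutants either.

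The ORF at 363 to 419 of ENSMUST00000143971 starts 6 bases after a longest ORF with 14280 P-sites and holds 341. It had 0.724, 0.371, 0.652 and 0.214 CPM in fed and 1.26, 2.77, 1.94 and 1.16 CPM in restricted mutants, without overlap (log2 difference 1.90 ± 0.59, edgeR adjusted p = 0.0386). Its longest ORF differed by 0.15 ± 0.13 (adjusted p = 0.532). The call was lost without replicate 2, 3 or 4 of the fed or replicate 2 or 3 of the restricted mutants, with adjusted p up to 0.127.

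Among the falls, ENSMUST00000100960 had 12.0, 8.90, 8.82 and 9.20 CPM in fed and 2.92, 1.75, 3.16 and 2.10 CPM in restricted mutants. These did not overlap (log2 difference -1.95 ± 0.30, edgeR adjusted p = 8.4e-05), and its longest ORF fell by 2.12 (adjusted p = 1.47e-06). The difference between the genotypes in this response was 1.30 ± 0.46 on the log2 scale and did not pass (adjusted p = 0.215).

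ENSMUST00000082426 had 0.941 to 1.55 CPM in fed mutants and 0.340, 0, 0.108 and 0.0724 CPM in restricted mutants, the latter from 0 to 7 P-sites. The log2 difference was -3.18 ± 0.75 (edgeR adjusted p = 0.00747), and the longest ORF, with 21.4, 22.0, 16.7 and 23.5 CPM in fed and 2.96, 1.90, 0.862 and 2.03 CPM in restricted mutants, fell by 3.45 (adjusted p = 0.00107). In restricted wild type, replicate 1 stood apart with 0.0391 CPM in this ORF against 2.12 to 2.63 in the other replicates, and with 0.937 CPM in the longest ORF against 14.8 to 29.1.

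The ORF at 513 to 689 of ENSMUST00000171054 had 2, 6, 7 and 6 P-sites in the fed mutants and 0 in each restricted mutant library. It was lower in restricted mutants (edgeR adjusted p = 0.0053). The fed mean of 0.268 CPM was 7.38 times the level that 3 P-sites over the restricted group would give. That multiple leaves out the spread of the few fed P-sites and is no firm lower bound. The longest ORF of this transcript still had 18, 22, 42 and 37 P-sites in the restricted mutants. The remaining falls were ENSMUST00000102985, at 0.146 ± 0.119 against 0.802 ± 0.169 CPM (edgeR adjusted p = 0.049), and the ORF at 280 to 318 of ENSMUST00000225963, at 0.396 ± 0.166 against 1.09 ± 0.449 CPM (SD, n = 4; adjusted p = 0.0175). The call of ENSMUST00000102985 was lost without any one of the 8 libraries (adjusted p up to 0.122). The call of ENSMUST00000225963 was lost without replicate 2 or 3 of the fed or replicate 2 or 4 of the restricted mutants, and in a fit of these groups alone (adjusted p up to 0.0829). Without replicate 2 or 3 of the fed mutants, or replicate 2 of the restricted ones, 4 of the 7 calls were left.

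**Figure D4:**
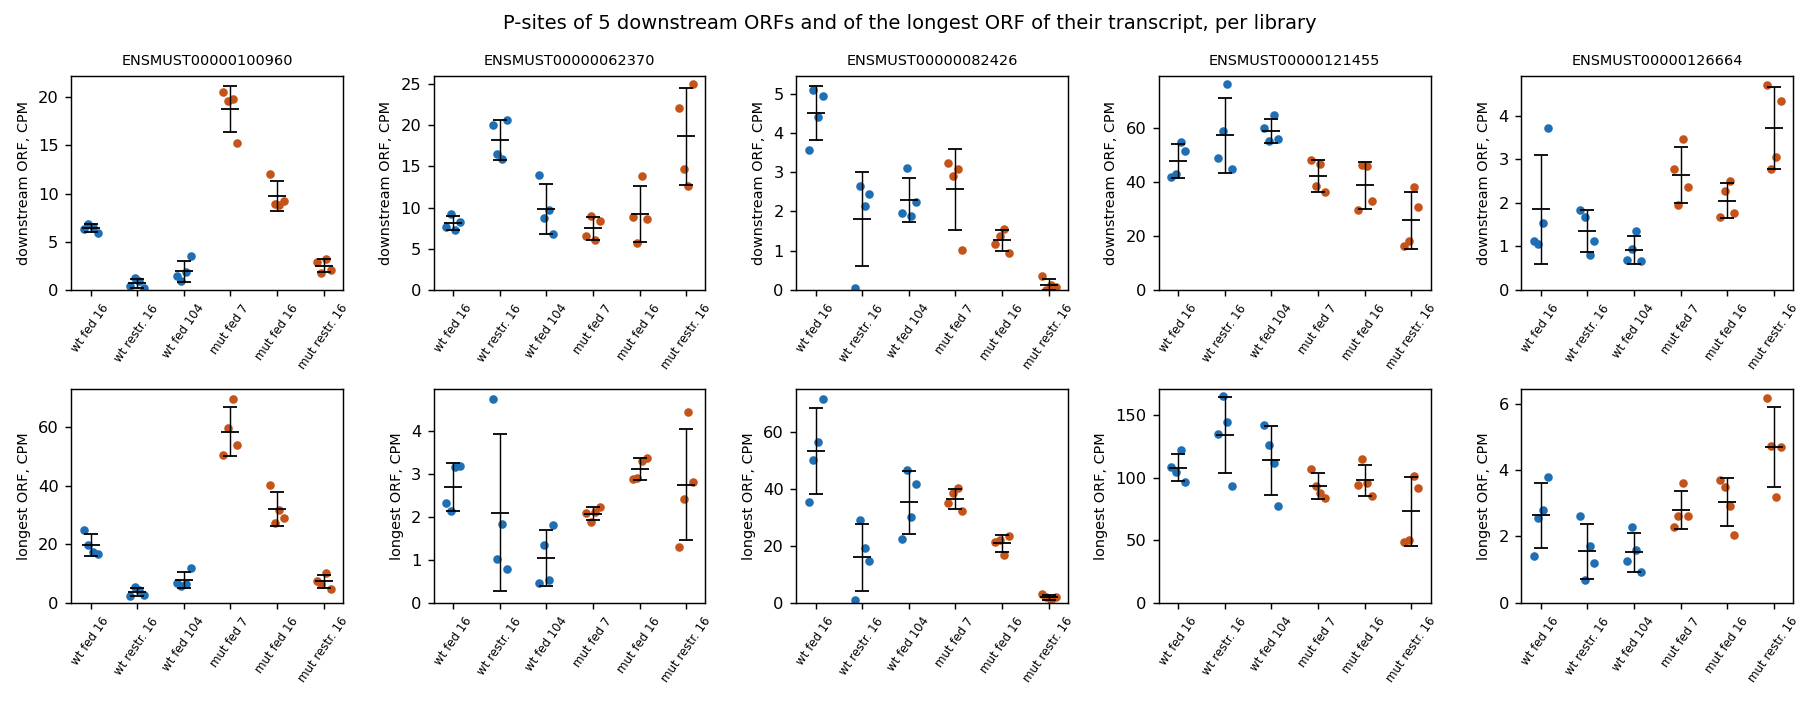
Level of 5 downstream ORFs (top row) and of the longest ORF of the same transcript (bottom row) in CPM, per library (points; blue wild type, orange mutant; fed or restr. for restricted, with age in weeks) with group mean and SD (black). In ENSMUST00000100960 both ORFs are low in restricted and in old wild type, and in ENSMUST00000062370 only the downstream ORF has its restricted wild-type libraries all above the fed ones.

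Restricted mutants against restricted wild type gave the most calls, 14 of 96, with 4 higher and 10 lower, against 17% of all ORFs (8.54% higher and 8.43% lower). The median log2 difference of the 96 was -0.12, against -0.02 over all ORFs. In a fit of these groups alone 7 of these 14 were called, 3 higher and 4 lower. Not every call lost in that fit is marked below.

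Among the rises, ENSMUST00000100960 had 1.75 to 3.16 CPM in restricted mutants and 0.132 to 1.18 in restricted wild type (log2 difference 1.89 ± 0.36, edgeR adjusted p = 0.000555). The ORF at 2604 to 4520 of ENSMUST00000126664, with 639 codons, had 1.84, 1.67, 0.802 and 1.12 CPM in restricted wild type and 4.71, 2.77, 3.05 and 4.34 CPM in restricted mutants. Its groups did not overlap (log2 difference 1.43 ± 0.34, edgeR adjusted p = 0.00466), and its longest ORF rose by 1.56 ± 0.34 (adjusted p = 0.00188).

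In ENSMUST00000150411 it was the first downstream ORF, at 703 to 942, that was higher, with 2.42, 2.74, 2.50 and 2.64 CPM in restricted wild type and 4.62, 5.93, 5.10 and 4.06 CPM in restricted mutants. The groups did not overlap (log2 difference 0.94 ± 0.25, edgeR adjusted p = 0.0104), while the longest ORF, with 8 to 46 P-sites per library in these groups, differed by 0.68 ± 0.35 (adjusted p = 0.193). The ORF at 1819 to 1914 of ENSMUST00000088419, outside the rule for named ORFs, was the other rise, at 0.877 ± 0.412 against 0.281 ± 0.0608 CPM (SD, n = 4; edgeR adjusted p = 0.0422). That call was lost without any one of 6 of the 8 libraries, all but replicates 1 and 3 of the restricted mutants (adjusted p up to 0.163).

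The falls included 2 of the 10 downstream ORFs with the highest levels. The ORF at 1476 to 2252 of ENSMUST00000121455 begins 10 bases after a longest ORF of 374 codons. It had 48.8, 58.9, 76.1 and 44.8 CPM in restricted wild type and 16.0, 17.9, 37.9 and 30.6 CPM in restricted mutants, without overlap (log2 difference -1.16 ± 0.22, edgeR adjusted p = 0.000499). Its longest ORF fell by 0.88 (adjusted p = 0.00483). ENSMUST00000119417 fell by 1.00 ± 0.28 (adjusted p = 0.0146) and its longest ORF by 1.05 (adjusted p = 0.00514), with overlap between the groups. The call of ENSMUST00000119417 was lost without replicate 2 of the restricted wild type or replicate 1 or 2 of the restricted mutants (adjusted p up to 0.0523), and was at 0.105 in a fit of these groups alone.

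The ORF at 405 to 461 of ENSMUST00000210080, 2 bases behind its longest ORF, had 1.60, 2.47, 1.84 and 4.16 CPM in restricted wild type and 0.389, 0.826, 0.790 and 0.434 CPM in restricted mutants. Every mutant library was lower (log2 difference -1.98 ± 0.40, edgeR adjusted p = 0.000941), and the longest ORF fell by 1.18 (adjusted p = 0.00198). The ORF at 416 to 619 of ENSMUST00000187848 had 0.625, 1.72, 1.65 and 0.990 CPM against 0.486, 0.243, 0.180 and 0.290 CPM (log2 difference -2.05 ± 0.52, adjusted p = 0.00718), and its longest ORF, of the same length of 68 codons, fell by 1.75 (adjusted p = 0.00279).

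ENSMUST00000115582 had 0.664, 2.10, 1.98 and 0.330 CPM in restricted wild type and 0.0972, 0.243, 0 and 0.0724 CPM in restricted mutants (log2 difference -3.60 ± 0.72, edgeR adjusted p = 0.000964). ENSMUST00000225963 fell by 1.57 ± 0.38 (adjusted p = 0.00454, and 0.0586 in a fit of these groups alone), and ENSMUST00000082426 fell by 3.67 ± 0.73 (adjusted p = 0.00115) with overlap, through replicate 1 of the restricted wild type. The other falls were ENSMUST00000179139 (1392 to 1451), ENSMUST00000232983 (326 to 376) and ENSMUST00000113793 (2548 to 2829). In the last, replicate 4 of the restricted wild type had 9.97 CPM against 1.84 to 2.63 in the other replicates, and the call was lost without it (edgeR adjusted p = 0.146). The fall of ENSMUST00000179139 was lost without replicate 3 or 4 of the restricted wild type or replicate 2, 3 or 4 of the restricted mutants (adjusted p up to 0.0832).

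By the edgeR test of the interaction, no difference between the genotypes in the response to restriction was detected among the 96. There 0 were called, against 0.654% of all ORFs, and the median SE of the 96 was 0.57 on the log2 scale. An unadjusted p under 0.05 was found for 12 of the 96. The same held for 63 of 500 upstream, 20 of 196 overlapping and 110 of 1182 longest ORFs. Among ORFs alone on their transcript it held for 1963 of 16370. DESeq2 also called 0, and a fit with no filter on low counts called 1 of the 225. The lowest unadjusted p were those of ENSMUST00000100960 (0.00868), ENSMUST00000121455 (0.00898), ENSMUST00000122361 (0.0124) and ENSMUST00000137298 (0.0176).

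A downstream ORF and its longest ORF are named on the same transcript, so their ratio was compared as well, with limma on log2((P-sites + 0.5)/(P-sites of the longest ORF + 0.5)). Whether the footprints of both came from the same mRNA was not tested. Adjustment was over 750 upstream, overlapping and downstream ORFs, of which 87 were downstream. In single comparisons 53 to 67 of the 87 had a difference of the same sign as their longest ORF. In restricted mutants against restricted wild type, the downstream ORF and the longest ORF were both called in 12 pairs, and in 11 of these in the same direction. The pair with opposite directions was ENSMUST00000179139.

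No ratio of a downstream ORF was called by limma in fed mutants against fed wild type, in old against young wild type, in mutants at 16 against 7 weeks, in restricted against fed wild type or in the interaction, where 6, 11, 4, 5 and 6 of 87 had an unadjusted p under 0.05. At the same unadjusted threshold there were 35, 31, 25, 24 and 42 of 470 upstream ORFs and 10, 13, 8, 3 and 6 of 193 overlapping ORFs. After adjustment, 0%, 0%, 0%, 0.133% and 0.533% of all 750 were called there. The median log2 difference of the ratio over the 87 was -0.12, -0.08, -0.20, 0.01 and 0.04 in these comparisons. An edgeR fit with the longest ORF as an offset called 0 of the 87 in each of these comparisons as well.

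In restricted against fed mutants the ratio was called for 3 of 87, 2 higher and 1 lower, against 4% of the 750 (0.267% higher and 3.73% lower). The median log2 difference was 0.13 over the 87, against -0.12 over 193 overlapping ORFs, -0.32 over 470 upstream ORFs and -0.19 over all 750. At bases 572 to 751 of ENSMUST00000107923, P-sites were 0.992%, 1.80%, 3.65% and 2.86% of those of the longest ORF in fed and 3.62%, 6.79%, 4.73% and 8.59% in restricted mutants (log2 difference 1.42 ± 0.40, limma adjusted p = 0.0341). The ranges overlapped at 1 library. The longest ORF fell by 1.08 (edgeR adjusted p = 5.2e-05) while the downstream ORF differed by 0.20 ± 0.37. The call was lost without replicate 1 or 2 of the fed or replicate 2, 3 or 4 of the restricted mutants, with adjusted p up to 0.163.

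At 966 to 1352 of ENSMUST00000137298, 14 bases behind the longest ORF, the percentages were 33.3%, 46.5%, 33.9% and 37.8% in fed and 63.4%, 62.9%, 56.4% and 60.0% in restricted mutants. The groups did not overlap, and the log2 difference was 0.69 ± 0.20 (limma adjusted p = 0.0463). In wild type the percentages were 43.1%, 30.5%, 43.7% and 44.0% fed and 49.0%, 42.1%, 35.5% and 51.7% restricted, with overlap. The call in mutants was lost without any one of 7 of the 8 libraries (adjusted p up to 0.169), all but replicate 2 of the fed mutants. The fall was that of ENSMUST00000171054 (log2 difference -3.07 ± 0.75, adjusted p = 0.0139), a value that depends on the pseudocount since the restricted mutants were at 0. With a pseudocount of 2 it did not pass (adjusted p = 0.125), nor without replicate 3 of the fed mutants (adjusted p = 0.0682). Without replicate 1 or 3 of the fed mutants, or replicate 2 or 4 of the restricted ones, 1 of the 3 calls was left. Without replicate 3 of the restricted mutants 3 ratios were called, of which 1 was among these 3.

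In restricted mutants against restricted wild type the ratio was called for 6 of 87, 1 higher and 5 lower, against 7.6% of the 750 (0.4% higher and 7.2% lower). The median log2 difference was 0.01 over the 87, against -0.14 over 193 overlapping ORFs, -0.43 over 470 upstream ORFs and -0.29 over all 750. The rise was ENSMUST00000100960, at 18.3%, 22.2%, 20.7% and 5.00% of the longest ORF in restricted wild type and 39.2%, 26.7%, 30.9% and 43.3% in restricted mutants. The groups did not overlap, and the log2 difference was 1.17 ± 0.30 (limma adjusted p = 0.0125). Without replicate 4 of the restricted wild type, which had 2 P-sites in this ORF, it was 0.73 (adjusted p = 0.109).

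The largest fall of a ratio was at 1392 to 1451 of ENSMUST00000179139, which had 5, 5, 11 and 12 P-sites against 50, 20, 27 and 12 in the longest ORF in restricted wild type. In restricted mutants it had 4, 1, 2 and 0 against 67, 48, 61 and 52. The downstream ORF was lower and the longest ORF higher in mutants (log2 differences -2.26 ± 0.70 and 1.14 ± 0.29, edgeR adjusted p = 0.0255 and 0.0083), and the ratio differed by -3.48 ± 0.75 (limma adjusted p = 0.00218).

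The ratio at 3258 to 3314 of ENSMUST00000108653 differed by -3.36 ± 0.86 (limma adjusted p = 0.0125). Its longest ORF had 67.3, 37.7, 13.0 and 14.3 CPM in restricted mutants and 14.8, 10.4, 7.88 and 17.1 CPM in restricted wild type, and the downstream ORF had 8, 11, 0 and 0 P-sites in the mutants. Without replicate 3 of the restricted mutants it did not pass (adjusted p = 0.0682). ENSMUST00000115582 differed by -2.29 ± 0.65 (adjusted p = 0.0204) and ENSMUST00000171054 by -2.39 ± 0.75 (adjusted p = 0.038). The former was lost without replicate 2 or 3 of the restricted wild type or replicate 3 of the restricted mutants (adjusted p up to 0.114). The latter was lost without replicate 1, 2 or 3 of the restricted wild type or replicate 3 or 4 of the restricted mutants (adjusted p up to 0.112). The size of the latter difference also depends on the pseudocount, since the restricted mutants were at 0 in that ORF. The fifth fall, outside the rule for named ORFs, was at 697 to 861 of ENSMUST00000187481 (log2 difference -1.53 ± 0.47, adjusted p = 0.0329). It was lost without replicate 3 or 4 of the restricted wild type or replicate 1, 3 or 4 of the restricted mutants (limma adjusted p up to 0.214), and with no filter on low counts (0.0671). Without replicate 3 of the restricted wild type 3 of the 6 calls were made, and without replicate 3 of the restricted mutants 2. With a pseudocount of 2, 4 of the 6 calls were left, 1 higher and 3 lower. With no filter on low counts 4 were left as well, 1 higher and 3 lower.

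**Figure D5:**
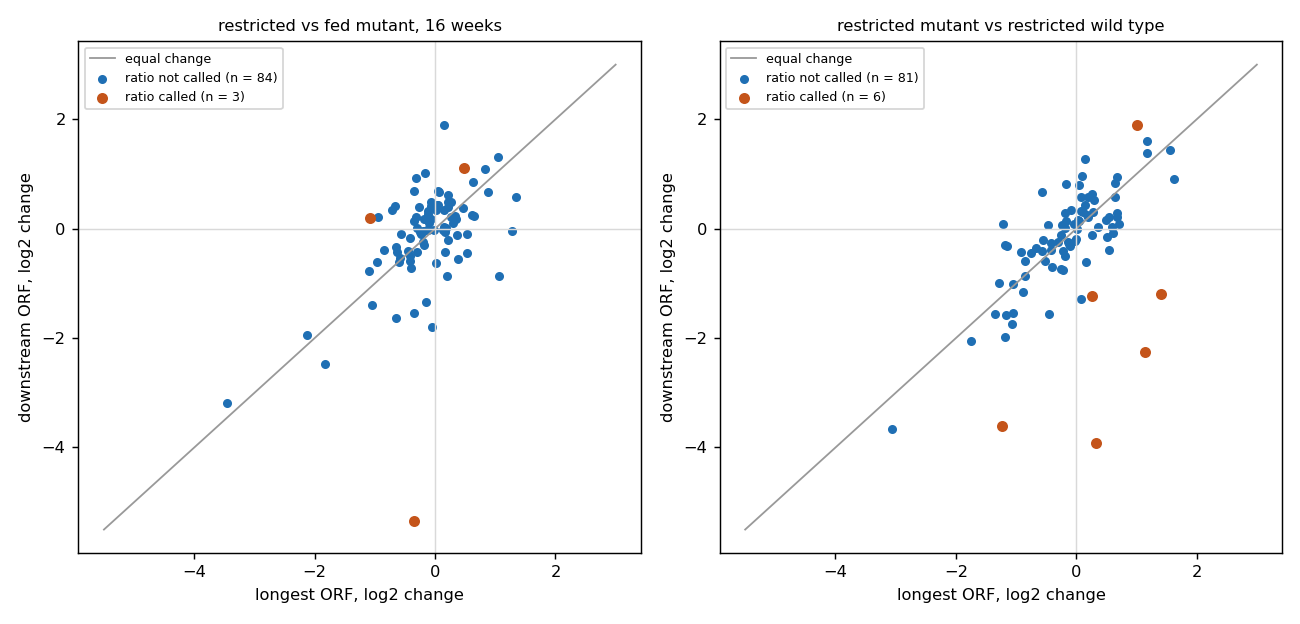
Log2 change of each of 87 downstream ORFs (y axis) against that of the longest ORF of its transcript (x axis), in restricted against fed mutants (left) and in restricted mutants against restricted wild type (right); orange points have a ratio called by limma, 3 on the left and 6 on the right, and the line marks equal change. The lowest point on the left and on the right is ENSMUST00000171054, whose fitted change has no fixed size because its restricted mutant libraries were at 0.

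Genes of termination, ribosome recycling and re-initiation were followed in the gene table, where 31 of 32 listed genes were present and tested. In fed mutants against fed wild type 3 were higher and 0 lower, against 5.69% and 5.04% of all genes: Abce1, which splits the ribosome after release (log2 difference 0.50 ± 0.11, edgeR adjusted p = 0.00512), and the initiation factor eIF3 subunits Eif3d (0.52 ± 0.13) and Eif3a (0.46 ± 0.14). In old wild type 1 was higher, Eif3d (0.57 ± 0.13, adjusted p = 0.00456), against 4.75% of all genes higher and 4.59% lower. In mutants at 16 against 7 weeks edgeR called 0 of 31, against 0.246% of all genes higher and 0.188% lower.

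Restriction in wild type gave 7 higher and 2 lower of 31, against 5.44% and 6.71% of all genes. Higher were Eif3f (1.06 ± 0.30), Eif3e (0.70 ± 0.16), Eif3h (0.68 ± 0.18), Eif3g, Eif3d, Eif3a and Rack1, a protein of the 40S subunit (1.29 ± 0.37, edgeR adjusted p = 0.0261). Lower were Eif2d (-0.60 ± 0.17, adjusted p = 0.0198) and Mcts1 (-0.52 ± 0.16, adjusted p = 0.0291), which release 40S subunits and tRNA after termination. In restricted against fed mutants 6 were higher, among them the rescue factor Hbs1l (0.69 ± 0.17) and Smg1, a kinase of nonsense-mediated decay (0.92 ± 0.19), and 1 was lower, the helicase Upf1 of the same pathway (-0.35 ± 0.11, edgeR adjusted p = 0.036), against 5.59% and 6.04% of all genes.

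In restricted mutants against restricted wild type 7 of 31 were higher and 0 lower, against 9.38% and 8.85% of all genes. They were Eif2d (0.89 ± 0.17, edgeR adjusted p = 0.000525), Abce1 (0.48 ± 0.11, adjusted p = 0.00466), Hbs1l (0.73 ± 0.17, adjusted p = 0.00391), its partner Pelo (0.51 ± 0.18, adjusted p = 0.0482), Nemf of ribosome quality control (0.49 ± 0.14, adjusted p = 0.0125), Eif3c and Eif3a. The median log2 difference of the list was 0.13, against -0.01 over all genes. The interaction was called by edgeR for 0 of 31, against 0.516% and 0.287% of all genes. These levels are footprints on those genes and were set beside the downstream ORFs without a test of a relation between them.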

How the data were processed

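Ribosome footprints of 24 mouse liver samples were deposited by the authors as whole-number counts, reads per gene and P-sites per ORF, per the file headers and values. The submitters' processing notes name Trimmomatic 0.39, cutadapt 3.4, Bowtie2 2.4.2, STAR 2.7.0f and 2.7.8a, featureCounts of Subread 1.6.4 and the build GRCm38.p6. The program behind each table, how ORFs were selected and the release of the annotation are not stated in any label or header used here. How reads shared between transcripts were assigned is not stated there either. A pooled P-site column (1 column) was left out. Groups came from the sample labels. The downstream ORFs and gene lists were chosen with earlier results of these data known.

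ORF and gene counts were filtered with filterByExpr over the 6 groups, TMM-scaled and fitted over all 24 libraries with edgeR 4.0.16 (quasi-likelihood, robust, 2-sided, 18 residual degrees of freedom for ORFs), with Benjamini-Hochberg adjustment over all features tested and a threshold of 0.05. CPM are P-sites per 1e6 TMM-scaled P-sites; 1 CPM equals 8.71 to 27.8 P-sites. The SE given with an edgeR log2 difference of an ORF is its absolute value divided by the square root of the F statistic. It was not estimated separately by the fit. Ratios used limma 3.58.1 (trend, robust) with a pseudocount of 0.5. Shares used exact permutation tests (scipy 1.17.1). DESeq2 1.42.0, RLE size factors, no filter, pseudocount 2, the compared groups alone, a main ORF chosen by P-sites, a replicate block and leaving out each library were alternatives. The scripts were tested on simulated data. Named were the 10 highest by CPM, per comparison up to 4 called rises and falls without overlap of libraries and with at least 1 CPM, up to 4 ratio rises and falls, the 5 highest densities relative to the longest ORF and the 3 longest and 3 shortest that passed the filter. Reads without molecular identifiers are not independent molecules. Marker genes were hepatocyte, macrophage, B and plasma cell, neutrophil, stellate, endothelial and cholangiocyte lists.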

Additional observations from a re-analysis of the deposited data

Results flagged for a closer look

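Among the 29 named downstream ORFs in 6 groups (174 sets of 4 libraries) and the downstream share in the same 6 groups, 180 sets in all were examined for a library whose gap to its nearest neighbour was above Dixon's critical share of the range, which chance gives in about 1 in 20 sets, and 8 sets had one. Replicate 1 of the fed 16-week mutants was the highest in 3 of them, with 12.01 CPM in ENSMUST00000100960 (others 8.82 to 9.20), 26.48 CPM in ENSMUST00000122361 (others 14.8 to 15.9) and 1.447 CPM in ENSMUST00000195764 (others 1.20 to 1.24). In 7-week mutants, replicate 4 was lowest in ENSMUST00000082426 at 1.024 CPM (others 2.91 to 3.24), and replicate 2 highest in ENSMUST00000107923 at 1.395 CPM (others 0.886 to 0.960). In the old wild type, replicate 2 was highest in ENSMUST00000115582 at 1.081 CPM (others 0.227 to 0.361). In fed young wild type, replicate 4 was lowest in ENSMUST00000119417 at 46.66 CPM (others 70.5 to 75.1). In restricted wild type, replicate 3 was lowest at bases 5148 to 6449 of ENSMUST00000224954 at 0.2359 CPM (others 0.462 to 0.484). The causes were not tested.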

How the results depend on the processing

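Counts of called downstream ORFs moved by more than 1.5 times as follows, and the cause was not tested. For mutant against wild type (3), they were 7 with DESeq2, 5 with no filter, 8 with the compared groups alone and 6 with a main ORF chosen by P-sites. For old against young (5), they were 8, 8 and 8 with the first 3 of these. For mutants at 16 against 7 weeks (1), they were 2 with DESeq2, 3 with the groups alone and 2 with a main ORF chosen by P-sites. No filter gave 7 for restriction in wild type (4) and 1 for the interaction (0), DESeq2 gave 11 for restriction in mutants (7), and the groups alone gave 7 for restricted mutants against restricted wild type (14). The 3 ratio calls of restricted against fed mutants became 1 with a pseudocount of 2, with edgeR and an offset, and with no filter. Choosing the main ORF by P-sites gave 303 downstream ORFs, 177 of them shared.

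The share changed sign without the 10 ORFs with the most P-sites for old against young (-0.1353 points) and mutants at 16 against 7 weeks (-1.147), and was 1.966 for restricted mutants against restricted wild type. With all P-sites as denominator it was 0.0007937 for restriction in wild type, with overlapping groups, and -0.0009015 for mutant against wild type, -0.0007925 for 16 against 7 weeks, -0.004804 for restriction in mutants and -0.006499 for restricted mutants against restricted wild type. The median log2 ratio gave -0.1566, -0.1336 and -0.09231 for mutant against wild type, 16 against 7 weeks and restricted mutants against restricted wild type.

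Leaving out 1 library gave ranges of 1 to 5, 3 to 5, 0 to 1, 2 to 5, 4 to 8, 11 to 16 and 0 to 0 calls in the 7 comparisons, in the order of the text. Ratio calls were 1 to 3 for restriction in mutants, 2 to 6 for restricted mutants against restricted wild type and 0 to 0 in the other 5 comparisons. Share differences were 0.5884 to 1.431, 1.406 to 2.226, 0.002483 to 0.6681, 2.301 to 3.311, 1.291 to 2.72 and -0.422 to 1.007 points. The last changed sign without replicate 3 (-0.422) or 4 (-0.3676) of the restricted mutants or replicate 2 (-0.2702) or 4 (-0.4042) of the restricted wild type. With a replicate block the calls were 4, 5, 1, 3, 8, 15 and 0, and ratio calls stayed at 3 and 6. Deviations of same-numbered libraries from their group means had correlations of -0.177 to 0.221 (mean 0.0055). These values show no pairing of the samples by number but cannot exclude one. Of 330 values of named ORFs under an alternative, 67 no longer passed and 263 kept their side.

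Low counts limit the 129 downstream ORFs that were not tested and the ORFs of a few P-sites per library, and no gene names or mRNA levels stood beside the counts.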
